A study of Mus musculus with 18 samples.

Results

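The change from 90 to 120 days of age was examined in lumbar motor neurons of G93A mice, which are transgenic for a mutant human SOD1. These samples are 6 of the 18 arrays of the study, 3 from animals of 90 days and 3 from animals of 120 days, chosen by genotype and age in their labels. The other arrays hold G93A animals of 60 days and non-transgenic littermates, called controls here, of 60, 90 and 120 days, with 3 animals in each group. Each array held RNA of 1000 motor neurons that had been laser-captured from 10 µm frozen sections of 1 animal after toluidine blue staining. The labels number the samples within each group and each array held 1 animal, so the 6 arrays come from 6 animals. The p-values rest on the spread between arrays within groups, pooled over all 18 arrays. That spread holds animal, capture and array together. It does not cover a shift shared by all arrays of an age. The comparison addresses which transcripts change as the disease of these mice advances. Control animals of the same ages are set beside it for the change with age. Their arrays also differed between the ages in measures given below, not always as in G93A, so age was not the only difference. The labels give neither the strain, the sex, the transgene's promoter nor its copy number.

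The G93A mouse expresses a mutant human superoxide dismutase 1 throughout the body and develops a paralytic disease with loss of spinal motor neurons. In these cells the large neurofilament-rich axon, the mitochondria that supply it, motor-driven transport and the protein quality control system of chaperones, proteasome and lysosome are the parts known to be affected. Around the motor neurons, microglia and astrocytes become reactive as the disease advances, and a captured cell body can carry fragments of the cells that touch it.

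The labelled cell type was checked against its markers. Of 28 motor neuron identity genes, 25 were on the array and 22 were tested, and the highest signals among them were those of the light neurofilament Nefl (10527, 11328 and 11639 at 90 days and 10625, 7746 and 14872 at 120 days), Nefh of the heavy neurofilament and the calcitonin gene-related peptide Calcb. The transmitter genes Slc5a7 and Slc18a3, the choline and vesicular acetylcholine transporters, were above the array median on 2 and 0 of the 18 arrays and were not tested. In Slc5a7 the signals were 38, 3.2 and 26.5 at 90 days and 5.3, 53.6 and 2.2 at 120 days. Markers of other cells were present too: the summed signal of the 25 tested microglia and macrophage markers ranged from 3164 to 5396 at 90 days and 11450.4 to 18424 at 120 days. For the 15 tested oligodendrocyte markers the sum was 7357 to 12472 at 90 days and 16459 to 23262 at 120 days, for the 22 astrocyte markers 8641 to 11337 at 90 days and 10416 to 14902 at 120 days, for the 17 endothelial markers 2266 to 2666 at 90 days and 3140.0 to 4146 at 120 days and for the 17 interneuron genes 2234 to 2370.2 at 90 days and 1480.4 to 1951 at 120 days. The microglial, oligodendrocyte and endothelial sums were higher on every 120-day array, the interneuron sums were lower, and the astrocyte sums overlapped. For the 22 motor neuron identity genes the sum was 16618 to 20152.5 at 90 days and 10011 to 18363.5 at 120 days, and the ages overlapped. Without Nefl it was 5290 to 9121 at 90 days and 2265 to 3491 at 120 days, lower on every 120-day array. Single genes carried much of these sums. Without Csf1r the microglial sum was 2409 to 3488 at 90 days and 4578 to 5789.5 at 120 days, and without Mbp the oligodendrocyte sum was 3435 to 5017 at 90 days and 5483 to 7654 at 120 days, again without overlap. Without Slc2a1 the endothelial sum was 1384 to 1586 at 90 days and 1517 to 1689.9 at 120 days, and the ages overlapped. Of the 6 marker lists, 1 member was under a signal of 1 on any of the 6 arrays (Tie1, endothelial), and no member was under 1 on all 3 arrays of an age. In such captured samples fewer cells of a type and less RNA per cell cannot be told apart.

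Some array measures moved with age. The mean log2 signal of the 12 hybridization-control probe sets, bacterial and phage transcripts added to each sample before hybridization, was 10.04, 10.37 and 10.10 at 90 days and 13.02, 12.52 and 12.32 at 120 days, a difference of 2.45 with no overlap (exact permutation test, two-sided, p = 0.1, the smallest that 3 against 3 arrays allow). In the control animals it was 1.71 higher at 120 days. The median signal was 47.4 ± 1.96 at 90 days and 54.3 ± 2.05 at 120 days (SD, n = 3, exact permutation p = 0.1), and in controls it was lower at 120 days (52.9 and 43.8, exact permutation p = 0.3). Gapdh probe sets near the transcript's 3' and 5' ends give a measure of RNA length, and their log2 ratio was 4.39 ± 0.30 and 4.94 ± 0.54 (exact permutation p = 0.3), and the ranges overlapped. The same ratio for beta-actin was 6.85, 4.61 and 6.74 at 90 days and 6.28, 7.16 and 5.16 at 120 days (exact permutation p = 0.9). In both genes the 3' signal was thus far above the 5' signal, and for beta-actin the ratio varied widely within an age. In controls the Gapdh ratios of 3.10, 4.18 and 2.47 at 90 days and 4.48, 4.22 and 4.73 at 120 days did not overlap, with a difference of 1.22 (exact permutation p = 0.1). The log2 signal of an 18S ribosomal RNA probe set was 0.79 higher at 120 days in G93A, whereas the control difference was -0.85, each without overlap (exact permutation p = 0.1). The share of probe sets with a signal under 1 was 0.422% at 90 days and 0.0279% at 120 days in G93A (exact permutation p = 0.1), and 0.182% and 0.451% in controls (p = 0.5 by the same test). The part of these measures in the changes below was not tested, apart from the models with hybridization controls or the Gapdh ratio as a term. Over the tested probe sets, log2 signals correlated at 0.803 to 0.838 within the 90-day G93A arrays. Within the 120-day G93A arrays it was 0.683 to 0.71, and between the ages 0.623 to 0.677. In controls the values were 0.678 to 0.742 within 90 days, 0.741 to 0.767 within 120 days and 0.650 to 0.807 between the ages. Pairs of a G93A and a control array of 90 days gave 0.710 to 0.852. Some pairs across groups thus correlated more highly than any pair within their own groups.

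**Figure D1:**
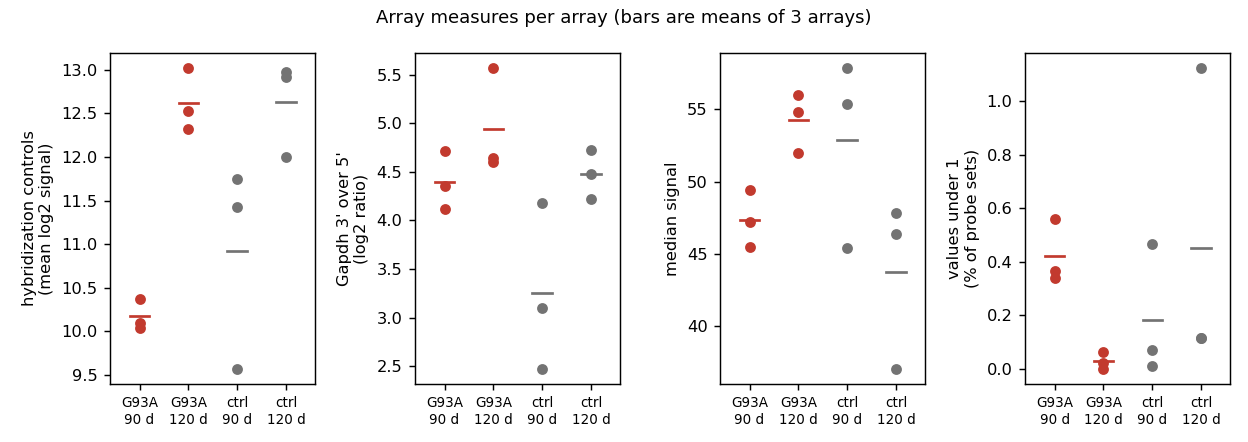
Array measures of the 12 arrays of 90 and 120 days, 1 point per array, G93A in red and control in grey, bars at the mean of 3 arrays. The hybridization controls (log2 signal) of the 120-day G93A arrays lie between 12.32 and 13.02, above all 3 of 90 days, while their Gapdh ratios (log2) of both ages overlap and the control ratios of 120 days lie above those of 90 days. The other panels give the median signal and the percentage of probe sets with a signal under 1.

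Between 90 and 120 days 1267 of 16565 tested probe sets changed in G93A motor neurons (7.65%, adjusted p below 0.05), 554 upward (3.34%) and 713 downward (4.3%). Counted by gene, with 1 probe set for each, 289 of 10051 genes were higher at 120 days (2.88%) and 475 were lower (4.73%), 7.6% in all. The median change was 1.88 on the log2 scale among the probe sets called higher and -1.86 among those called lower. The 3 arrays of each age did not overlap for 551 of the 554 and for 700 of the 713, beside 31% of all tested probe sets. Calls were most frequent among the brightest of 4 equal classes by level, where 9.42% were higher and 11.1% lower, against 1.52% and 1.47% in the dimmest class. In all that follows, signals are linear MAS5 values given in the order of the array numbers, differences are log2 values of 120 minus 90 days with ± as standard error, and n is 3 animals for each age. For gene lists, counts of called members are given beside 2.88% higher and 4.73% lower of all genes, shares that are not matched for level. Lists such as those of complex I, ATP synthase and cytosolic ribosomal proteins lie above the mean level of all genes on every array. So do the lists of neuronal intermediate filaments, heat shock genes, CCT, proteasome, complexes II to IV and the tricarboxylic acid cycle. The lists of mitochondrial carriers, glycolysis, the vacuolar proton pump, dynein and dynactin, and synaptic vesicles do as well. For such bright lists the shares of the brightest class, 9.42% higher and 11.1% lower of probe sets, are the nearer background. A called share above 7.6% of all genes is for them not by itself an excess. List medians are given with the control median and with the range over 19 alternative settings, which include the omission of each array. Over all genes the median was -0.07 in G93A and -0.13 in controls. Where the signals of an age lie below the array median, the size of a difference depends on the floor at low signals. 

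After each array was centred on its median, 389 probe sets were higher and 785 lower, and the median change of all probe sets moved from -0.05 to -0.24. The number of calls depended on single arrays and on the hybridization controls. Without 90-day array 1 it was 548, without 90-day array 3 it was 582, without 120-day array 1 it was 749 and without 120-day array 2 it was 821. With these controls' level as a term of the model, 19 probe sets were called, 12 higher and 7 lower. In that fit 1260 of the 1267 kept their sign, the median changes were 1.51 and -1.26, and the median standard error of all probe sets grew from 0.69 to 0.99. The level and age moved together in both genotypes. Of 148 called genes named by the rule of the methods, 6 kept their call in that model: Mt1, Csf1r, Ndufab1, Cycs, Atf4 and Psma5. When each of the 6 arrays was left out in turn, 58 of the 148 kept the call in every fit.

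**Figure D2:**
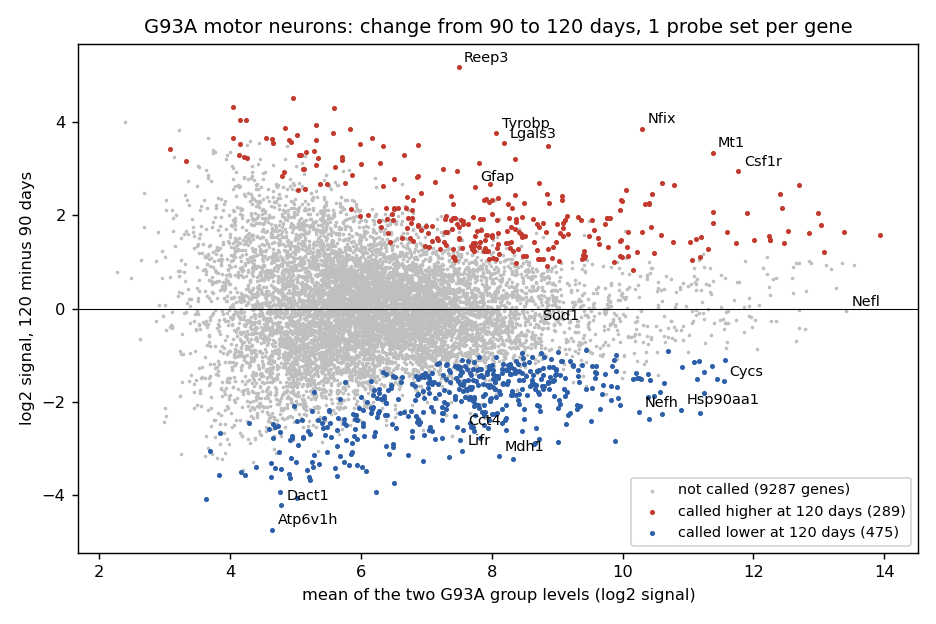
Change from 90 to 120 days in G93A motor neurons (vertical axis, log2 signal) against the mean level of both ages (horizontal axis, log2 signal), 1 point per gene for 10051 genes. The 289 genes called higher (red) and 475 called lower (blue) lie outside a band that narrows as the level rises, Nefl and Sod1 lie near 0, and Mt1 and Csf1r stand out among the bright genes.

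The clearest rise was in Mt1, 1 of the metallothioneins, small cysteine-rich proteins that bind zinc and copper. Of 3 tested metallothioneins 2 were called higher and 0 lower. Their median was 1.63 (1.45 in controls, 1.34 to 2.05 over the alternatives). Mt1 had signals of 759, 1003 and 763 at 90 days and 9723, 11202 and 5528 at 120 days, a log2 difference of 3.34 ± 0.36 (adjusted p = 1.1e-05). Among the genes, each represented by 1 probe set, it had the smallest p of the comparison. All 3 arrays of 120 days stood above every array of 90 days, with 5528 as the lowest at 120 days and 1003 as the highest at 90 days. Mt2 showed signals of 569, 562 and 730.4 at 90 days and 2869, 2277 and 1063 at 120 days, a log2 difference of 1.63 ± 0.40 (adjusted p = 0.0125), again without overlap. For Mt3, the form that predominates in brain, the values were 54.7, 49.8 and 38.1 at 90 days and 85.9, 119.6 and 76.4 at 120 days and the difference of 0.97 ± 0.69 did not pass (adjusted p = 0.454). In controls the Mt1 signals were 683, 595 and 721 at 90 days and 1267, 1577 and 2992 at 120 days (1.45 ± 0.36, called), so that Mt1 rose in both genotypes, and the difference of 1.89 ± 0.51 between the changes did not pass the test. Mt1 kept its call without each array, whereas Mt2 lost it without 90-day array 1 or 120-day array 1 or 2 (adjusted p up to 0.0821).

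Metallothionein genes are transcribed through metal response elements, and the sequences from 250 bases before to 30 bases after the annotated starts of Mt1 and Mt2 are shown because both rose together. They are RefSeq sequences of GRCm38.p6, read 5′ to 3′ on the plus strand of chromosome 8, at chr8:94178839-94179118 (plus strand) and chr8:94172368-94172647 (plus strand). Capitals mark matches on either strand to TGCGCNC or TGCACNC, the core of the element.
Mt1: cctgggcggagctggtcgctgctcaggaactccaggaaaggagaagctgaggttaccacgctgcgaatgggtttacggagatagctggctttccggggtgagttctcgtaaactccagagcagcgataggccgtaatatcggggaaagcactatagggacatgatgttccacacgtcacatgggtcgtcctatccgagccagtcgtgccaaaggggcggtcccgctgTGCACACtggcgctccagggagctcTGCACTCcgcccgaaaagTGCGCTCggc
Mt2: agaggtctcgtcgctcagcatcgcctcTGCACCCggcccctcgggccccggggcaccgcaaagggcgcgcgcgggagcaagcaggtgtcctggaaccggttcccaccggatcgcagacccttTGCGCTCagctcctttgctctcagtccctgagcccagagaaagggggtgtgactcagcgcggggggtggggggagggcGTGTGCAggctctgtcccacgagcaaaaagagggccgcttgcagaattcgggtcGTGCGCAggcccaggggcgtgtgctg
Mt1 holds 3 matches and Mt2 holds 4, Mt4 (not tested) holds 1 and Mt3 holds 0. Those of Mt1 and Mt2 lie on both sides of the annotated start. Among all 32851 promoter windows of this length, 24.1% hold at least 1 match and 1.73% hold 3 or more. A match is a description of the letters and was not related to binding.

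Neurofilament genes were lower at 120 days in part. Of 7 intermediate filament genes of neurons tested, 2 were called lower and 0 higher, and all 7 differences were below 0, with a median of -1.62 (-0.54 in controls, -1.85 to -0.62 over the alternatives) and 28.6% called against 7.6% of all genes. The median nearest 0, -0.62, came from the mean over all tested probe sets of each gene. When the control change was subtracted gene by gene, the median of the 7 was -0.18. Nefh, the heavy neurofilament subunit, had signals of 2695, 1924 and 3471 at 90 days and 454, 508 and 775 at 120 days, a log2 difference of -2.22 ± 0.41 (adjusted p = 0.00198). Prph, which encodes peripherin, showed 474, 368 and 446 at 90 days and 115, 123 and 183 at 120 days, a log2 difference of -1.64 ± 0.42 (adjusted p = 0.0174), though 1 of its 3 other probe sets differed in sign. Both were lower on every 120-day G93A array. Control signals of Nefh were 2922, 1882 and 1309 at 90 days and 3126, 1044 and 843 at 120 days. Those of Prph were 400, 309 and 468 at 90 days and 590, 176 and 180.5 at 120 days. Nefm, the medium subunit, was also without overlap (452, 520.1 and 522 at 90 days and 171, 95.1 and 258 at 120 days) but its difference of -1.62 ± 0.66 did not pass (adjusted p = 0.141). Its control signals were 750, 1211 and 2681 at 90 days and 2426, 335 and 147.5 at 120 days. For Nefh, Prph and Nefm alike, control 120-day array 1 stood above arrays 2 and 3. For Nefl the difference of -0.06 ± 0.48 did not pass (adjusted p = 0.963) and its value depended on the processing. After quantile normalization it was -1.26 ± 0.30 and passed (adjusted p = 0.0118), with hybridization controls as a model term it was -1.36 (adjusted p = 0.315), and its sign turned with the Gapdh ratio in the model (0.31) and without 120-day array 2 (0.17). Nefh kept its call without each array. Prph lost its call when 90-day array 1 or 3 or 120-day array 1 or 2 was left out (adjusted p up to 0.079).

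Among the 22 motor neuron identity genes tested, 1 was called higher and 6 lower, against 2.88% and 4.73% of all genes, with a median of -0.39 (-0.26 in controls, -0.74 to -0.02 over the alternatives) and 31.8% called against 7.6% of all genes. The lower calls include Nefh and Prph, the filament genes called above. When single arrays were left out, the median of the list ranged from -0.67 to -0.02. Lifr, a receptor subunit for neurotrophic cytokines, had signals of 864, 338 and 528 at 90 days and 67.2, 49.2 and 83.3 at 120 days, a log2 difference of -3.04 ± 0.54 (adjusted p = 0.00151), although its 1 other probe set differed in sign. Slit2, a secreted guidance protein, showed 246, 171 and 272 at 90 days and 78, 5.7 and 18.7 at 120 days, a log2 difference of -3.48 ± 0.95 (adjusted p = 0.0246). Chodl, a marker of fast motor neurons, fell as well (659, 75.4 and 378 at 90 days and 37, 68.9 and 54.2 at 120 days, -2.36 ± 0.66, adjusted p = 0.0269), and so did the transcription factor Lhx4 (-2.09 ± 0.63, adjusted p = 0.0424). Chodl spread widely at 90 days, where array 2 was far below arrays 1 and 3. The 1 that rose was Cntfr, the receptor for ciliary neurotrophic factor, with 87.9, 116 and 152 at 90 days and 325, 217 and 215 at 120 days (1.10 ± 0.34, adjusted p = 0.0498). The transcription factor Isl2 had 129, 142 and 141 at 90 days and 236, 94.1 and 133 at 120 days, and the groups overlapped. Isl1 was higher on every 120-day array without being called (38.4, 28.3 and 30.9 at 90 days and 68.7, 115 and 92.5 at 120 days). So was Aldh1a2 (22.1, 104 and 55.8 at 90 days and 162, 147 and 149 at 120 days). Of the 22 differences 9 were above 0 and 13 below. The ages did not overlap for 3 higher and 9 lower members, beside 31.7% of all genes. Lifr kept its call without each array. Slit2 lost its call when 90-day array 1 or 3 or 120-day array 2 or 3 was left out (adjusted p up to 0.143).

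Endogenous Sod1, measured by a mouse probe set, had signals of 262, 639 and 622 at 90 days and 294, 377 and 449 at 120 days, a difference of -0.35 ± 0.56 that did not pass (adjusted p = 0.773). The ages overlapped, and with hybridization controls as a model term the sign turned (0.41). Whether this probe set also reads the human transgene was not tested. Of 17 mouse orthologues of genes linked to amyotrophic lateral sclerosis, 2 were higher and 2 lower, with a median of -0.41 (0.13 in controls, -0.61 to -0.18 over the alternatives) and 23.5% called against 7.6% of all genes. Tbk1, a kinase of autophagy and innate immunity, fell from 743, 561 and 722 to 177, 119.9 and 242, a log2 difference of -1.96 ± 0.38 (adjusted p = 0.00287), and kept its call without each array. Ubqln2, a shuttle factor of the proteasome, fell (305, 797 and 435 at 90 days and 63.5, 171 and 86.5 at 120 days, -2.27 ± 0.55, adjusted p = 0.0116), with no overlap. Atxn2, an RNA-binding protein, rose (639, 830.3 and 597 at 90 days and 1892, 1651 and 1541 at 120 days, 1.31 ± 0.31, adjusted p = 0.00984), with 1 of 3 other probe sets opposite in sign, as did the mitochondrial protein Chchd10 (1.40 ± 0.43, adjusted p = 0.0478). Ubqln2 lost its call when 90-day array 2 or 120-day array 1 was left out (adjusted p up to 0.0694). Atxn2 lost its call when 90-day array 3 was left out (adjusted p up to 0.0567). Chchd10 lost its call when any 1 of the 6 arrays was left out (adjusted p up to 0.189).

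Several chaperones were lower at 120 days. Of 26 heat shock genes tested, 5 were called lower and 1 higher, and 18 differences were below 0, with a median of -0.74 (-0.011 in controls, -1.06 to -0.17 over the alternatives) and 23.1% called against 7.6% of all genes. Hsp90aa1, the inducible cytosolic HSP90, had signals of 3646, 4734 and 3791 at 90 days and 709.6, 778 and 1300.5 at 120 days, a log2 difference of -2.17 ± 0.31 (adjusted p = 0.000309). Hspa8, the constitutive HSP70, showed 712, 873 and 985 at 90 days and 164, 148 and 344 at 120 days, a log2 difference of -2.06 ± 0.38 (adjusted p = 0.00198), with 2 of its 3 other probe sets opposite in sign and the remaining 1 called lower. Hspd1, the mitochondrial HSP60, fell from 619, 548 and 419.9 to 87.8, 55.7 and 128, a log2 difference of -2.61 ± 0.54 (adjusted p = 0.00426). None of these groups overlapped. Their co-chaperones Dnaja1 (-2.25 ± 0.56, adjusted p = 0.0136) and Hsph1 (-1.44 ± 0.36, adjusted p = 0.0135, its 1 other probe set opposite) fell too. The member that rose was Cryab, the small heat shock protein alpha-B crystallin, abundant in oligodendrocytes and astrocytes, with 2966, 3054 and 2736 at 90 days and 11520.2, 7749 and 5980.2 at 120 days, a log2 difference of 1.48 ± 0.34 (adjusted p = 0.0092). Hsp90aa1, Hspa8 and Hspd1 kept their calls without each array. Cryab lost its call when 120-day array 1 was left out (adjusted p up to 0.0627). In controls Hsp90aa1 fell as well (-1.28 ± 0.31, called). The control difference of Hspd1 was 0.04 ± 0.54. Its control signals were 203, 606 and 372 at 90 days and 1366, 215 and 168 at 120 days, so that array 1 stood apart.

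The ring-shaped CCT chaperonin, which folds actin and tubulin, gave 2 lower and 0 higher calls among its 8 subunits, with a median of -0.95 (0.014 in controls, -1.15 to -0.49 over the alternatives) and 25% called against 7.6% of all genes. Cct4 had signals of 593, 371 and 455 at 90 days and 66.9, 61.6 and 109 at 120 days, a log2 difference of -2.60 ± 0.37 (adjusted p = 0.000277), the smallest p of the chaperone lists, although 1 of its 4 other probe sets differed in sign. Tcp1 fell from 891, 385 and 772 to 93.1, 209 and 379, a log2 difference of -1.72 ± 0.50 (adjusted p = 0.0347). Cct5 showed 948, 763 and 795 at 90 days and 182, 421 and 631 at 120 days and did not pass (-1.19 ± 0.41, adjusted p = 0.0757), and with hybridization controls as a model term its sign turned (0.10). Cct4 kept its call without each array. Tcp1 lost its call when 90-day array 1 or 3 or 120-day array 1 or 2 was left out (adjusted p up to 0.205).

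Heat shock genes are transcribed through heat shock elements, and the windows of the 2 called members that hold the 3-unit form of the element are shown. They are RefSeq sequences of GRCm38.p6, from 250 bases before to 30 bases after an annotated start, read 5′ to 3′ on the minus strand: Hspd1 at chr1:55087903-55088182 (minus strand) and Hsph1 at chr5:149636286-149636565 (minus strand). Capitals mark matches to 3 alternating units of GAA and TTC with 2 free bases between neighbours, starting with either unit, which covers both strands. Each gene has another annotated start whose window holds no match. For Hsph1 the windows of both starts overlap. Its match begins at +15, after the start shown, and lies just past the end of the other window.
Hspd1: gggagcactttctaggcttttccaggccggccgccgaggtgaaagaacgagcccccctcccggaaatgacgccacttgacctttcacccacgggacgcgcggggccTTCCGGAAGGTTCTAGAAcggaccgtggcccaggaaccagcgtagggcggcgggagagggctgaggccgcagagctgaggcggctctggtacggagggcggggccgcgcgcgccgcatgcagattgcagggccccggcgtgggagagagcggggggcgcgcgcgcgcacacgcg
Hsph1: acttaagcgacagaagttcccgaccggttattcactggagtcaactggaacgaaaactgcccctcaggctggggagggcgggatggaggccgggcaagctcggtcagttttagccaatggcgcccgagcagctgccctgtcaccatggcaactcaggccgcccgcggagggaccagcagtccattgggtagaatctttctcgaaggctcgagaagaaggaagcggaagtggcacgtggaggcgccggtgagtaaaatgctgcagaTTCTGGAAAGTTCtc
The Hspd1 window holds 2 overlapping matches and is shared with Hspe1, its partner chaperonin, which is read in the opposite direction. Hspe1 had signals of 147, 290.3 and 219 at 90 days and 30.2, 147 and 133 at 120 days and did not pass (-1.33 ± 1.06, adjusted p = 0.517). Of 32851 windows, 0.563% hold a match. Among the 28 members of the list, 21 have a window in the table and 4 of these hold a match, and among the 6 called members 3 have a window and 2 hold a match.

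The proteasome, which degrades ubiquitin-tagged proteins, was lower at 120 days in 9 of its tested subunits. Of these 33 subunits 1 was called higher, and 27 differences were below 0, with a median of -0.87 (0.04 in controls, -1.09 to -0.35 over the alternatives) and 30.3% called against 7.6% of all genes. The mean level of the list relative to all genes was between 1.63 and 1.92 at 90 days and between 0.77 and 1.24 at 120 days. Psmd14, the deubiquitinase of the lid, had signals of 1687, 1062 and 1145 at 90 days and 207, 273 and 350.0 at 120 days, a log2 difference of -2.23 ± 0.36 (adjusted p = 0.000804). Core subunits fell too: Psma5 from 2485, 2575 and 2697 to 641, 659 and 799 (-1.89 ± 0.32, adjusted p = 0.00112), Psma7 (-1.93 ± 0.34, adjusted p = 0.00129) and Psma2 (-1.71 ± 0.35, adjusted p = 0.00364). Psma1, Psma3, Psmc6, Psmd5 and Psmd12 were the others called lower, with differences from -2.24 to -1.23. Psmb3, a beta subunit, was called in the opposite direction (1753, 1161 and 1362 at 90 days and 7445, 3834 and 4446 at 120 days, 1.84 ± 0.46, adjusted p = 0.0153). Psmd14, Psma5, Psma7 and Psma2 kept their calls without each array.

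Of 20 genes of ubiquitin and its enzymes, 2 were lower and 1 higher, with a median of -0.72 (-0.36 in controls, -0.95 to -0.0015 over the alternatives) and 15% called against 7.6% of all genes. The conjugating enzymes Ube2e1 (602, 848 and 668 at 90 days and 122, 114 and 342 at 120 days, -2.05 ± 0.53, adjusted p = 0.0173) and Ube2g1 (439.8, 313 and 365 at 90 days and 124, 179.7 and 110.3 at 120 days, -1.45 ± 0.34, adjusted p = 0.0101) fell. The deubiquitinase Otub1 rose (113, 146 and 127 at 90 days and 543, 264 and 277 at 120 days, 1.41 ± 0.33, adjusted p = 0.00997). In 20 autophagy genes (10% called) 1 passed in each direction: the receptor Tax1bp1 fell (184, 210.5 and 238 at 90 days and 67.1, 15.4 and 7.6 at 120 days, -3.40 ± 0.84, adjusted p = 0.0131) and Atg13, a subunit of the initiating kinase complex, rose (126, 124 and 104 at 90 days and 246, 264 and 241 at 120 days, 1.09 ± 0.32, adjusted p = 0.0383, its 1 other probe set opposite in sign). Becn1, a subunit of an autophagy lipid kinase, did not pass (220.4, 156 and 225 at 90 days and 45.7, 11.7 and 80.6 at 120 days, -2.50 ± 0.82, adjusted p = 0.0641, 1 of 3 other probe sets opposite). Ube2e1 lost its call when 90-day array 2 or 3 or 120-day array 1 or 2 was left out (adjusted p up to 0.0877). Ube2g1 lost its call when 90-day array 1 was left out (adjusted p up to 0.0632). Otub1 lost its call when 90-day array 1 or 120-day array 1 was left out (adjusted p up to 0.0784). Tax1bp1 lost its call when 90-day array 3 or 120-day array 3 was left out (adjusted p up to 0.0694). Atg13 lost its call when any 1 of the 6 arrays was left out (adjusted p up to 0.141).

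Of 26 genes of endoplasmic reticulum stress and folding, 3 were lower and 1 higher, with a median of -0.22 (-0.46 in controls, -0.51 to -0.11 over the alternatives) and 15.4% called against 7.6% of all genes. Atf4, the transcription factor of the integrated stress response, had signals of 868, 1976 and 1199.6 at 90 days and 408, 386 and 596 at 120 days, a log2 difference of -1.48 ± 0.38 (adjusted p = 0.0161), with no overlap. In controls it differed by -1.42 ± 0.38. Dnajb9, a co-chaperone of the lumen, fell (708, 896 and 993 at 90 days and 224, 345 and 227 at 120 days, -1.72 ± 0.47, adjusted p = 0.0252), as did Creb3 (-1.10 ± 0.30, adjusted p = 0.0235, with 1 of 3 other probe sets opposite). The calcium-binding chaperone Calr rose (702, 1024 and 872 at 90 days and 1551, 1311 and 1726 at 120 days, 0.83 ± 0.25, adjusted p = 0.0452). Atf4 lost its call when 90-day array 2 or 3 or 120-day array 1 or 2 was left out (adjusted p up to 0.101). Dnajb9 lost its call when any 90-day array or 120-day array 1 or 3 was left out (adjusted p up to 0.101). Creb3 lost its call when 90-day array 1 or 3 or 120-day array 2 or 3 was left out (adjusted p up to 0.1). Calr lost its call when any 1 of the 6 arrays was left out (adjusted p up to 0.215). Among 25 antioxidant enzymes 1 passed (4%), Prdx4, which fell (108, 272 and 137 at 90 days and 74.9, 31.7 and 48.5 at 120 days, -1.71 ± 0.48, adjusted p = 0.0301) and lost its call without 90-day array 2 or 3 or 120-day array 2 or 3 (adjusted p up to 0.169). The heme oxygenase Hmox1 was higher on every 120-day array (11.7, 4.3 and 13.2 at 90 days and 97.1, 47.3 and 85.9 at 120 days) and just missed the threshold (3.07 ± 0.97, adjusted p = 0.0523).

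Some genes of mitochondrial metabolism were lower at 120 days. In the tricarboxylic acid cycle with pyruvate dehydrogenase, 6 of 20 genes were called lower and 1 higher, with a median of -1.05 (-0.12 in controls, -1.25 to -0.56 over the alternatives) and 35% called against 7.6% of all genes. Mdh1, the cytosolic malate dehydrogenase of the malate-aspartate shuttle, had signals of 1085, 686 and 768 at 90 days and 45.9, 93.5 and 184 at 120 days, a log2 difference of -3.17 ± 0.51 (adjusted p = 0.000804), and both other probe sets were called lower too. The array values of 120 days, 45.9 to 184, lay far below those of 90 days. Pdhb, the E1 beta subunit of pyruvate dehydrogenase, fell from 1346, 1160.2 and 1244 to 424, 388 and 659 (-1.39 ± 0.29, adjusted p = 0.00452), and Fh1, fumarate hydratase, fell too (-1.59 ± 0.36, adjusted p = 0.00786). Sdhd, an anchor subunit of succinate dehydrogenase, showed 98.6, 145 and 164 at 90 days and 6.3, 14.3 and 5.5 at 120 days (-4.07 ± 0.96, adjusted p = 0.0101), and with a pseudocount of 16 the difference was -2.61. The succinyl-CoA ligase genes Sucla2 (-2.27 ± 0.56, adjusted p = 0.0135) and Suclg1 (-1.88 ± 0.47, adjusted p = 0.0139) fell. Citrate synthase, Cs, was the exception and rose (1601, 1683 and 1589 at 90 days and 4838, 3868 and 3303 at 120 days, 1.28 ± 0.31, adjusted p = 0.0119, 1 of 2 other probe sets opposite in sign), and it was called in controls too (1.30 ± 0.31). Mdh1, Pdhb and Fh1 kept their calls without each array. Sdhd lost its call when 90-day array 3 was left out (adjusted p up to 0.0535).

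Carriers and import proteins of the mitochondrial membranes gave 5 lower and 1 higher call among 25, with 21 differences below 0 and a median of -0.66 (-0.011 in controls, -0.86 to -0.57 over the alternatives) and 24% called against 7.6% of all genes. The lower calls include Hspd1, which is counted with the heat shock genes too. Vdac2, an outer-membrane channel, had signals of 624, 391 and 464 at 90 days and 57.2, 48.7 and 117 at 120 days, a log2 difference of -2.81 ± 0.52 (adjusted p = 0.00198). Its paralogue Vdac3 fell too (2189, 1716 and 1821 at 90 days and 679.9, 609.9 and 926 at 120 days, -1.38 ± 0.31, adjusted p = 0.00637). Slc25a3, the phosphate carrier, fell from 4389, 3182 and 3912 to 1007, 1647 and 1399 (-1.52 ± 0.36, adjusted p = 0.0106) while it differed by 0.36 ± 0.36 in controls. The import receptor Tomm70a was lower (-1.22 ± 0.38, adjusted p = 0.0466, 1 of 2 other probe sets opposite) and the inner-membrane import protein Timm44 higher (1.07 ± 0.29, adjusted p = 0.0249). Hadhb of the trifunctional protein was the 1 call among 18 genes of fatty acid oxidation (5.56%) and fell (438, 378 and 285 at 90 days and 115, 95.3 and 115 at 120 days, -1.74 ± 0.32, adjusted p = 0.00182). Vdac2, Vdac3 and Hadhb kept their calls without each array. Slc25a3 lost its call when 90-day array 1 or 120-day array 1 was left out (adjusted p up to 0.0639).

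Subunits of the respiratory chain moved both ways. Complex I had 6 lower and 3 higher calls among 33 subunits, with a median of -0.14 (0.19 in controls, -0.35 to 0.04 over the alternatives) and 27.3% called against 7.6% of all genes. Ndufab1, the mitochondrial acyl carrier protein, fell (308, 286 and 476 at 90 days and 80.2, 63.6 and 56.8 at 120 days, -2.39 ± 0.34, adjusted p = 0.000263), whereas Ndufv1, a core subunit that binds NADH, rose (1979, 1613 and 1683 at 90 days and 7615, 4456 and 4716 at 120 days, 1.63 ± 0.33, adjusted p = 0.00397, 1 of 2 other probe sets opposite). Ndufa9 fell (-1.97 ± 0.50, adjusted p = 0.0154) and Ndufa3 rose (1.32 ± 0.33, adjusted p = 0.0135). Among 24 subunits of complexes II to IV with cytochrome c, 2 passed in each direction (16.7% in all). The lower ones were Cycs and Sdhd, which is counted in the tricarboxylic acid cycle too. Cycs, cytochrome c itself, fell from 5525, 4216 and 5806 to 2037, 1546 and 1670.2 (-1.56 ± 0.37, adjusted p = 0.0106), and both other probe sets were called lower. The abundant Cox6a1 rose (8653, 9345 and 9351 at 90 days and 33937, 25697 and 22712 at 120 days, 1.57 ± 0.48, adjusted p = 0.0464), as did Cox6b1 (1.65 ± 0.45, adjusted p = 0.0246, its 1 other probe set opposite). In ATP synthase 3 of 17 were lower and 1 higher, with a median of -0.50 (0.28 in controls, -0.69 to -0.30 over the alternatives) and 23.5% called against 7.6% of all genes. Atp5g3, a c-ring subunit, had signals of 4635, 4604 and 4442 at 90 days and 942, 1271 and 1842 at 120 days, a log2 difference of -1.81 ± 0.36 (adjusted p = 0.00322), and the control difference was 0.01 ± 0.36. Atp5j fell too (-1.53 ± 0.31, adjusted p = 0.00394), and Atp5d, the delta subunit, rose (2764, 2975 and 2734 at 90 days and 11722, 5995 and 8166 at 120 days, 1.56 ± 0.37, adjusted p = 0.0103). Ndufab1, Ndufv1, Atp5g3 and Atp5j kept their calls without each array. Ndufa9 lost its call when 90-day array 1 or 3 or 120-day array 1 or 2 was left out (adjusted p up to 0.0905). Ndufa3 lost its call when 90-day array 1 or 3 or 120-day array 1 was left out (adjusted p up to 0.0916). Cycs lost its call when 90-day array 1 or 3 was left out (adjusted p up to 0.0561). Cox6a1 lost its call when any 1 of the 6 arrays was left out (adjusted p up to 0.152). Cox6b1 lost its call when any 90-day array or 120-day array 1 or 2 was left out (adjusted p up to 0.1). Atp5d lost its call when 120-day array 1 was left out (adjusted p up to 0.066).

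Of 16 glycolytic genes, 2 were higher and 1 lower, with a median of 0.29 (0.33 in controls, 0.09 to 0.39 over the alternatives) and 18.8% called against 7.6% of all genes. Pfkp, the platelet-type phosphofructokinase, fell (941, 727 and 802 at 90 days and 312, 248 and 372 at 120 days, -1.42 ± 0.29, adjusted p = 0.00426) and kept its call without each array. Aldoc, an aldolase that is prominent in astrocytes, rose (1632, 2745 and 2078 at 90 days and 6268, 5769.6 and 4767 at 120 days, 1.40 ± 0.32, adjusted p = 0.00836), and it was called in controls too (1.34 ± 0.32). Slc2a1, the glucose transporter of endothelium and glia, rose as well (816, 1153 and 882 at 90 days and 2456, 1623 and 2491 at 120 days, 1.19 ± 0.36, adjusted p = 0.0449). Aldoc lost its call when 90-day array 1 was left out (adjusted p up to 0.0661). Slc2a1 lost its call when any 90-day array or 120-day array 1 or 3 was left out (adjusted p up to 0.162). Of the 4 probe sets of Ldhb, the lactate dehydrogenase of oxidative tissue, the brightest was higher without passing (4333, 5067 and 4805 at 90 days and 11236, 8223 and 8728 at 120 days, 0.98 ± 0.36, adjusted p = 0.0985) and the other 3 were called lower, so no direction is given for it, and the mean of the 4 differed by -0.74.

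The vacuolar proton pump, which acidifies lysosomes and synaptic vesicles, gave 4 lower and 0 higher calls among 16 genes, with 14 differences below 0 and a median of -0.55 (0.22 in controls, -0.81 to -0.32 over the alternatives) and 25% called against 7.6% of all genes. Atp6v1h, a regulatory subunit, fell (163, 106 and 124 at 90 days and 2, 12.6 and 4.5 at 120 days, -4.74 ± 0.89, adjusted p = 0.00203). Its 120-day signals lay below the array median on all 3 arrays, and with a pseudocount of 16 the difference was -2.73 (adjusted p = 0.000859). Atp6v1c1, a brighter subunit, fell from 2463, 1671 and 2277 to 752, 716 and 754 (-1.51 ± 0.35, adjusted p = 0.0087), and its control difference was 0.13 ± 0.35. Atp6v1b2 (-3.36 ± 0.80, adjusted p = 0.0103, its 1 other probe set opposite) and Atp6ap1 (-1.89 ± 0.54, adjusted p = 0.0325) were the others. Atp6v1h kept its call without each array. Atp6v1c1 lost its call when 90-day array 1 was left out (adjusted p up to 0.0523). Atp6v1b2 lost its call when 120-day array 1 or 2 was left out (adjusted p up to 0.0614). Atp6ap1 lost its call when any 90-day array or 120-day array 1 or 3 was left out (adjusted p up to 0.138).

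Some genes of retrograde transport were lower. Of 18 dynein and dynactin genes, 5 were called lower and 1 higher, with a median of -0.47 (-0.33 in controls, -0.67 to -0.35 over the alternatives) and 33.3% called against 7.6% of all genes. Dync1i1, a dynein intermediate chain of neurons, had signals of 696, 552 and 591 at 90 days and 134, 222 and 104 at 120 days, a log2 difference of -2.07 ± 0.31 (adjusted p = 0.000516). Pafah1b1, the dynein regulator LIS1, fell from 503, 478 and 518 to 92.5, 171 and 79.3 (-2.21 ± 0.38, adjusted p = 0.00112, 1 of 3 other probe sets opposite). Dynll2, a light chain, and Dctn3, a dynactin subunit, fell as well (-1.65 ± 0.33, adjusted p = 0.00305, and -2.49 ± 0.52, adjusted p = 0.00452). Bicd2, an adaptor that links dynein to cargo, rose (390.0, 538 and 418 at 90 days and 2819, 1188 and 1461 at 120 days, 1.93 ± 0.44, adjusted p = 0.00747), with 2 of 3 other probe sets opposite in sign. Dync1i1, Pafah1b1, Dynll2 and Dctn3 kept their calls without each array. Bicd2 lost its call when 120-day array 1 was left out (adjusted p up to 0.0591). Among 13 kinesin genes 1 passed in each direction (15.4%): Kif1b, a motor for mitochondria and vesicle precursors, fell (1391, 1268 and 1332 at 90 days and 171, 347 and 449.6 at 120 days, -2.15 ± 0.65, adjusted p = 0.0424, 2 of 4 other probe sets opposite) and Kif1c rose (1.05 ± 0.33, adjusted p = 0.048, 1 of 2 opposite). Kif1b lost its call when any 90-day array or 120-day array 1 or 2 was left out (adjusted p up to 0.182). Kif1c lost its call when any 1 of the 6 arrays was left out (adjusted p up to 0.158).

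At the synapse, 3 of 26 vesicle and SNARE genes were lower and 0 higher, with a median of -0.30 (0.11 in controls, -0.50 to -0.04 over the alternatives) and 11.5% called against 7.6% of all genes. Napg, gamma-SNAP, had signals of 794, 458 and 589.9 at 90 days and 227, 80.3 and 135 at 120 days, a log2 difference of -2.15 ± 0.40 (adjusted p = 0.00198). Snap25, the SNARE of the presynaptic membrane, fell from 1452, 1886 and 1345 to 317, 409 and 642 (-1.82 ± 0.45, adjusted p = 0.0131). Of 10 glycine and GABA receptor genes, 2 were lower (20%): Glrb, the beta subunit of the glycine receptor (220.3, 240.4 and 236 at 90 days and 53.1, 7.2 and 71.7 at 120 days, -2.94 ± 0.71, adjusted p = 0.012), and Gphn, its scaffold gephyrin (185, 146 and 129 at 90 days and 81.4, 7 and 68.4 at 120 days, -2.16 ± 0.59, adjusted p = 0.0241, 1 other probe set opposite). None of 9 glutamate receptor genes passed. Of 18 voltage-gated channel genes, 2 were lower (11.1%), the potassium channel subunit Kcnab1 (-2.61 ± 0.55, adjusted p = 0.00451) and the sodium channel Scn1a (-1.37 ± 0.37, adjusted p = 0.0221), each with its 1 other probe set opposite in sign. Napg and Kcnab1 kept their calls without each array. Snap25 lost its call when 90-day array 2 or 120-day array 1 was left out (adjusted p up to 0.0725). Glrb lost its call when 120-day array 2 was left out (adjusted p up to 0.0898). Gphn lost its call when any 90-day array or 120-day array 2 was left out (adjusted p up to 0.129). Scn1a lost its call when 90-day array 2 or 3 or 120-day array 1 or 2 was left out (adjusted p up to 0.105).

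Microglial and phagocyte genes were higher at 120 days in part. Of the 25 microglia and macrophage markers tested, 3 were called higher and 1 lower, and 18 differences were above 0, with a median of 0.80 (0.63 in controls, 0.60 to 1.00 over the alternatives) and 16% called against 7.6% of all genes. In controls 3 of the 25 were called. Csf1r, the receptor for colony-stimulating factor 1, had signals of 755, 1908 and 1383 at 90 days and 13708, 9708 and 6872 at 120 days, a log2 difference of 2.95 ± 0.40 (adjusted p = 0.000259). Tyrobp, the adaptor of TREM2 signalling, went from 33.6, 127 and 90.8 to 983, 1239 and 796, a log2 difference of 3.76 ± 0.58 (adjusted p = 0.000601). Ly86 rose too (9.9, 78.9 and 54.1 at 90 days and 450.0, 496 and 278 at 120 days, 3.51 ± 0.81, adjusted p = 0.00868), and Fcgr2b fell (-1.31 ± 0.40, adjusted p = 0.045, 2 of 3 other probe sets opposite). All 3 that rose were free of overlap and were higher in controls as well, with control differences of 1.83 ± 0.40 and 2.68 ± 0.58 for the called Csf1r and Tyrobp. Other defining markers did not pass or were not tested: Cx3cr1 had signals of 61.3, 117 and 104 at 90 days and 53.2, 61.3 and 62 at 120 days, P2ry12 of 49.1, 52.7 and 48.6 at 90 days and 24.8, 78.3 and 47.1 at 120 days, and Aif1, which was too low to be tested, of 24.8, 3.9 and 22.7 at 90 days and 48.5, 29.6 and 27.1 at 120 days. Csf1r and Tyrobp kept their calls without each array. Ly86 lost its call when 90-day array 1 was left out (adjusted p up to 0.0791). Fcgr2b lost its call when 90-day array 1 or 3 or any 120-day array was left out (adjusted p up to 0.198).

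Of 20 phagocyte activation genes, 2 were higher and 0 lower, with a median of 0.91 (0.11 in controls, 0.56 to 1.14 over the alternatives) and 10% called against 7.6% of all genes. Lgals3, galectin-3, had signals of 35.4, 200.4 and 87.5 at 90 days and 768, 1124 and 1136 at 120 days, a log2 difference of 3.54 ± 0.72 (adjusted p = 0.00365), and in controls 61, 21.4 and 53.9 at 90 days and 12.2, 89.9 and 218 at 120 days. Cd52, a surface glycoprotein of leukocytes, rose from 29.4, 9.4 and 23.8 to 205, 233 and 209 (3.52 ± 0.70, adjusted p = 0.00321). Both kept their calls without each array. Cst7 was higher on every 120-day array and did not pass (3.3, 20.4 and 12.5 at 90 days and 109, 97.3 and 62.5 at 120 days, 3.21 ± 1.15, adjusted p = 0.0921). None of 9 complement genes passed, although 7 differences were above 0. Their median was 1.05 (-0.98 in controls, -0.09 to 1.41 over the alternatives), and the negative value came from the filter that asks for 9 of 18 arrays above the median. C1qb was higher without passing (32.2, 14.8 and 29.5 at 90 days and 111, 68.5 and 114 at 120 days, 1.98 ± 0.91, adjusted p = 0.198), and both its other probe sets were called higher. Among 20 lysosomal hydrolases (5% called) Ctsz rose (68.7, 47.3 and 41.8 at 90 days and 198, 499 and 237 at 120 days, 2.48 ± 0.64, adjusted p = 0.0173), and among 16 interferon and antigen presentation genes (6.25% called) Ifitm3 rose (83.6, 93.1 and 114 at 90 days and 507, 305 and 298 at 120 days, 1.90 ± 0.44, adjusted p = 0.00832). Ctsz lost its call when 90-day array 2 or 3 or 120-day array 2 was left out (adjusted p up to 0.101). Ifitm3 lost its call when 120-day array 1 was left out (adjusted p up to 0.0552). Without the called Csf1r, Tyrobp, Fcgr2b and Ly86, the summed signal of the other 21 microglia markers was 1929.8 to 2999 at 90 days and 3112 to 3869 at 120 days, and its part in these genes was not tested.

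Astrocyte markers moved both ways, with 3 higher and 1 lower call among 22 and a median of 0.02 (0.54 in controls, -0.35 to 0.43 over the alternatives) and 18.2% called against 7.6% of all genes. Gfap, the intermediate filament of reactive astrocytes, had signals of 64.3, 90.2 and 111 at 90 days and 406, 846 and 428 at 120 days, a log2 difference of 2.61 ± 0.57 (adjusted p = 0.00581), and its 1 other probe set was called higher too. Atp1b2 rose (311, 236 and 192 at 90 days and 1701, 1519 and 676 at 120 days, 2.32 ± 0.56, adjusted p = 0.0118) and S100b fell (1709, 992 and 1567 at 90 days and 429, 844 and 393 at 120 days, -1.41 ± 0.40, adjusted p = 0.0293). Of 21 reactive glia genes 3 were higher and 0 lower, with a median of 0.90 (0.014 in controls, 0.42 to 1.13 over the alternatives) and 14.3% called against 7.6% of all genes. Besides Gfap these were Vim, vimentin (119, 513 and 206 at 90 days and 1311, 1575 and 919 at 120 days, 2.41 ± 0.60, adjusted p = 0.0136), and Sdc4, a heparan sulfate proteoglycan (149.7, 229 and 189 at 90 days and 532, 476 and 478 at 120 days, 1.41 ± 0.37, adjusted p = 0.0207). Gfap kept its call without each array. Atp1b2 lost its call when 90-day array 3 or 120-day array 1 or 2 was left out (adjusted p up to 0.0639). S100b lost its call when 90-day array 1 or 3 or 120-day array 1 or 3 was left out (adjusted p up to 0.13). Vim lost its call when 90-day array 1 or 3 or 120-day array 1 or 2 was left out (adjusted p up to 0.102). Sdc4 lost its call when 90-day array 1 or 3 or 120-day array 1 or 2 was left out (adjusted p up to 0.107). Of 15 oligodendrocyte markers, 3 were higher and 0 lower, with a median of 0.52 (0.75 in controls, 0.24 to 1.14 over the alternatives) and 20% called against 7.6% of all genes. Without these 3 the summed signal of the list was 3295 to 4697 at 90 days and 3357 to 6181 at 120 days, and the ages overlapped. Mbp, myelin basic protein, had signals of 3922, 7455 and 6169.5 at 90 days and 10976, 15607 and 13296 at 120 days (1.22 ± 0.38, adjusted p = 0.04995, just below the threshold), and 1 of its 7 other probe sets was opposite. Sox10, the lineage transcription factor, rose from 33.8, 169.7 and 217 to 1738, 1042 and 536 (3.20 ± 0.70, adjusted p = 0.00575, 1 of 2 others opposite), and Myrf rose too (1.91 ± 0.46, adjusted p = 0.0109). Mbp lost its call when any 1 of the 6 arrays was left out (adjusted p up to 0.258). Sox10 lost its call when 90-day array 1 was left out (adjusted p up to 0.0578). Myrf lost its call when 90-day array 1 or 3 was left out (adjusted p up to 0.0544). In controls Mbp differed by 1.52 ± 0.38 and Sox10 by 2.75 ± 0.70. Endothelial markers gave 2 higher (Abcb1a and Slc2a1) and 1 lower (Itm2a) of 17 (17.6%), with a median of 0.54 (0.70 in controls, 0.16 to 0.73 over the alternatives), and none of 17 interneuron genes passed. How far neighbouring cells contributed to any of these values was not tested.

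Ribosomal protein genes of the cytosol rose where they passed: 5 of 39 tested were higher and 0 lower, with a median of 0.24 (0.46 in controls, 0.04 to 0.34 over the alternatives) and 12.8% called against 7.6% of all genes. Rpsa had signals of 2761, 2671 and 2472 at 90 days and 13609.7, 10412 and 11294 at 120 days, a log2 difference of 2.15 ± 0.36 (adjusted p = 0.000914), and Rps10 of 474, 496 and 397 at 90 days and 1642, 1734 and 1394 at 120 days (1.80 ± 0.31, adjusted p = 0.00109), both without overlap. Many ribosomal protein genes have processed pseudogenes that share probe sequence, so single members are uncertain. Of 63 mitochondrial ribosomal proteins, 3 were higher and 4 lower (11.1%). Mrps14 fell (1524, 455 and 975 at 90 days and 136, 148 and 144 at 120 days, -2.62 ± 0.41, adjusted p = 0.000605) and Mrpl52 rose (568, 732 and 578 at 90 days and 3601, 2652 and 2752 at 120 days, 2.26 ± 0.40, adjusted p = 0.00141). Among 29 translation factors 3 were lower and 2 higher (17.2%). Eif3e fell (363, 234 and 187 at 90 days and 60.1, 31.5 and 17.3 at 120 days, -2.98 ± 0.55, adjusted p = 0.00199, 2 of 3 other probe sets opposite), and so did Eif4g2 (-1.68 ± 0.35, adjusted p = 0.0046, 1 of 3 opposite). Eif2s2, called higher here, has another probe set called lower. Of 36 splicing factors and hnRNP proteins, 6 were lower and 1 higher (19.4%). Hnrnph1 showed 318, 195 and 321 at 90 days and 86.6, 20.9 and 69.5 at 120 days (-2.44 ± 0.53, adjusted p = 0.00562), Srsf3 showed 431, 455 and 369 at 90 days and 117, 124 and 81.7 at 120 days (-1.97 ± 0.44, adjusted p = 0.00731, 1 of 5 opposite), and Rbfox1, a neuronal splicing factor, rose (363, 572 and 416 at 90 days and 1085, 1196 and 875 at 120 days, 1.24 ± 0.30, adjusted p = 0.0124). Rpsa, Rps10, Mrps14, Mrpl52, Eif3e, Eif4g2, Hnrnph1 and Srsf3 kept their calls without each array. Rbfox1 lost its call when 90-day array 1 or 3 or 120-day array 2 was left out (adjusted p up to 0.0791).

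Among genes of injury, death, division, cholesterol synthesis and matrix, the share of tested members called ran from 0% (immediate early genes) and 4.55% (axon injury and regeneration) through 9.09% (cell cycle), 9.52% (cholesterol synthesis) and 11.5% (matrix and adhesion) to 14.3% (cell death), against 7.6% of all genes. Of 22 axon injury and regeneration genes 1 was higher, the transcription factor Klf7 (237, 343 and 296 at 90 days and 521, 646 and 656 at 120 days, 1.07 ± 0.28, adjusted p = 0.0201), and Gap43 did not pass (26.4, 26.1 and 36.2 at 90 days and 84.3, 149 and 152 at 120 days, 2.09 ± 0.95, adjusted p = 0.192). None of 21 immediate early genes passed: Jun showed 94.3, 94.4 and 69.9 at 90 days and 194, 101 and 134 at 120 days (0.69 ± 0.39), and Atf3 overlapped (17.3, 154 and 147 at 90 days and 204, 111 and 145 at 120 days, 1.03 ± 0.86) with a sign that turned without 90-day array 1 (-0.013) and with hybridization controls as a model term (-0.67). Among 21 genes of the BCL2 family, caspases and cell death, 3 were lower and 0 higher: Cycs, described above, the caspase inhibitor Xiap (78.2, 124 and 80.9 at 90 days and 33, 3.4 and 9 at 120 days, -3.20 ± 0.87, adjusted p = 0.0245, both other probe sets opposite) and Bnip3 (556, 449 and 518 at 90 days and 188, 207 and 224 at 120 days, -1.30 ± 0.36, adjusted p = 0.0274). Of 22 cell cycle genes, Cdkn1a, the inhibitor p21, rose (30.9, 130.2 and 184 at 90 days and 326, 269 and 259 at 120 days, 1.65 ± 0.50, adjusted p = 0.0444) and Pcna, the replication clamp, fell (219, 192 and 219.6 at 90 days and 17.2, 80.7 and 38.3 at 120 days, -2.48 ± 0.65, adjusted p = 0.0197). The 2 called enzymes of cholesterol synthesis among 21 genes fell, Idi1 (-1.93 ± 0.44, adjusted p = 0.0075) and Sqle (-2.90 ± 0.79, adjusted p = 0.0235). Of 26 matrix and adhesion genes 2 were higher and 1 lower, among them the proteoglycan Bgn (79.1, 137 and 64.2 at 90 days and 312, 343 and 374 at 120 days, 1.95 ± 0.53, adjusted p = 0.0231) and Sparcl1 (655, 937 and 818 at 90 days and 291, 257 and 152 at 120 days, -1.82 ± 0.48, adjusted p = 0.0209). Klf7 lost its call when 90-day array 1 or 3 or 120-day array 2 or 3 was left out (adjusted p up to 0.113). Xiap lost its call when any 90-day array or 120-day array 2 or 3 was left out (adjusted p up to 0.124). Bnip3 lost its call when any 90-day array or 120-day array 1 or 2 was left out (adjusted p up to 0.106). Cdkn1a lost its call when 90-day array 1 or any 120-day array was left out (adjusted p up to 0.326). Pcna lost its call when any 90-day array or 120-day array 1 was left out (adjusted p up to 0.112). Idi1 lost its call when 90-day array 1 was left out (adjusted p up to 0.0569). Sqle lost its call when any 90-day array or 120-day array 3 was left out (adjusted p up to 0.148). Bgn lost its call when 90-day array 1 or 3 or any 120-day array was left out (adjusted p up to 0.114). Sparcl1 lost its call when 90-day array 2 or 3 or 120-day array 3 was left out (adjusted p up to 0.0951).

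**Figure D3:**
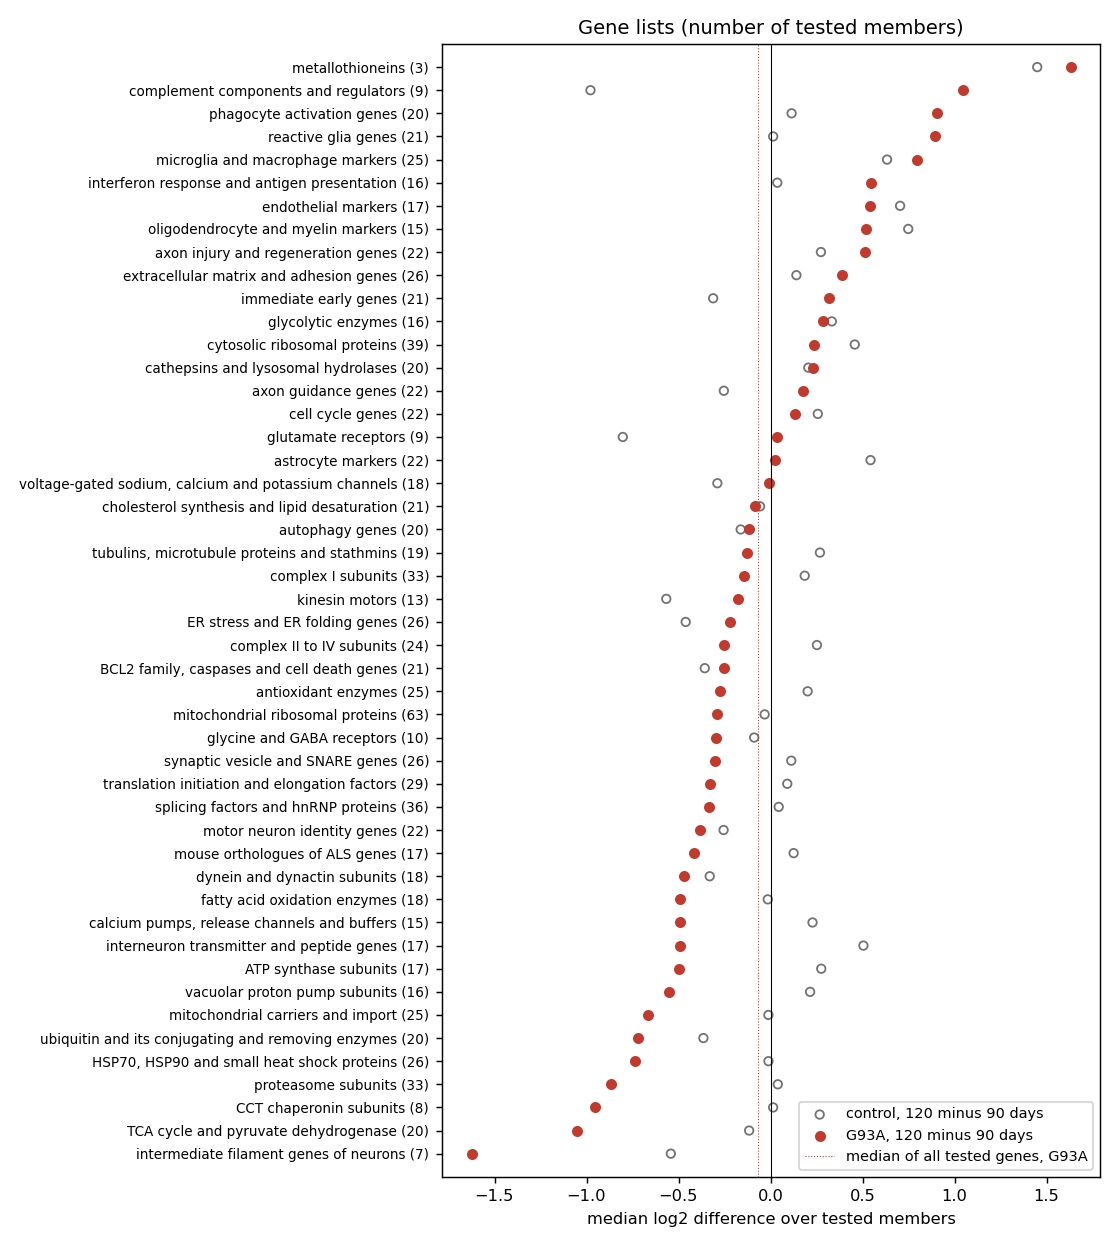
Median log2 difference of 120 minus 90 days over the tested members of each of the 48 gene lists (number of members in parentheses), G93A as filled red points and control as open grey points, with the median of all G93A genes as a dotted line. The metallothioneins stand at 1.63 (1.45 in controls) and the neuronal intermediate filaments at -1.62 (-0.54 in controls). The proteasome, CCT and heat shock lists lie below 0 in G93A, and their control medians lie near 0. In these lists control 120-day array 1 was above arrays 2 and 3. Relative to all genes, CCT levels there were 3.36, 2.41 and 2.46, against 2.59 to 2.86 in controls of 90 days. Heat shock levels were 2.48, 1.70 and 1.28, against 1.68 to 2.06. Proteasome levels were 2.01, 1.61 and 1.46, against 1.37 to 1.88.

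The 15 genes with the largest rises among those called without overlap were of low signal at 90 days apart from Nfix, with no other 90-day value above 133 (Reep3). Of their 45 signals at 90 days, 36 lay below the array median, so that sizes and order depend on the floor. With a pseudocount of 16 the 15 differences ran from 2.09 to 4.09 and all were called, and with values under 16 set to 16 all but Col20a1 were (adjusted p = 0.0606). Reep3, a membrane-shaping protein of the endoplasmic reticulum, led with 2.5, 133 and 81.2 at 90 days and 1796, 1098 and 642 at 120 days (5.17 ± 0.90, adjusted p = 0.00126), although 1 of its 3 other probe sets was opposite and the mean over its probe sets was not called. Nfix, a transcription factor of the nuclear factor I family, was the brightest (126, 673 and 429.9 at 90 days and 6059, 5041 and 3617 at 120 days, 3.85 ± 0.62, adjusted p = 0.000789), and its relative Nfic rose as well (1.93 ± 0.35, adjusted p = 0.00165). Immune genes among the 15 were the chemokine Ccl5 (10.6, 9 and 11.2 at 90 days and 118, 358 and 88.7 at 120 days, 3.93 ± 0.92, adjusted p = 0.00937), the interferon-induced Ifi27l2a (2.8, 21.6 and 21.1 at 90 days and 490.2, 194 and 102 at 120 days, 4.30 ± 0.94, adjusted p = 0.00593), Bcl3, a cofactor of NF-kappa-B (2.8, 19.1 and 5.2 at 90 days and 219, 154 and 98.2 at 120 days, 4.51 ± 1.25, adjusted p = 0.0269), Trafd1 (3.76 ± 1.04, adjusted p = 0.0257) and Tyrobp. The others were Txndc11, Syt3, Col20a1, Psd, Plekhh3, Fxyd1, Lpo and Safb2, with differences from 3.64 to 4.31. Reep3, Nfix, Nfic, Tyrobp and Psd kept their calls without each array. Ccl5 lost its call when 120-day array 2 was left out (adjusted p up to 0.0633). Ifi27l2a lost its call when 90-day array 1 was left out (adjusted p up to 0.0528). Bcl3 lost its call when 90-day array 1 or 3 or 120-day array 1 or 2 was left out (adjusted p up to 0.13). Trafd1 lost its call when 90-day array 2 or 3 or 120-day array 1 or 2 was left out (adjusted p up to 0.115). Txndc11 lost its call when 90-day array 2 or 120-day array 2 was left out (adjusted p up to 0.0532). Syt3 lost its call when 90-day array 1 was left out (adjusted p up to 0.0813). Col20a1 lost its call when 90-day array 1 or 120-day array 1 or 2 was left out (adjusted p up to 0.0854). Plekhh3 lost its call when 90-day array 1 was left out (adjusted p up to 0.0525). Fxyd1 lost its call when 90-day array 1 or 2 or 120-day array 1 or 2 was left out (adjusted p up to 0.0978). Lpo lost its call when any 90-day array or 120-day array 2 or 3 was left out (adjusted p up to 0.102). Safb2 lost its call when 90-day array 1 was left out (adjusted p up to 0.0555).

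The 15 largest falls began at 90-day signals of 34.2 (Phtf2) to 449.9 (Tspyl1) and ended at 120-day signals of 1.1 (Il10) to 95.5 (Stk39). Of their 45 signals at 120 days, 41 lay below the array median, so that sizes and order depend on the floor here too. With a pseudocount of 16 the differences ran from -3.01 (Tspyl1) to -1.48 (Il10), and Phtf2 (-1.80, adjusted p = 0.0572) and Il10 (adjusted p = 0.0851) were no longer called, nor were these with values under 16 set to 16 (adjusted p = 0.127 and 0.184). Besides Atp6v1h and Sdhd these included Dact1, an antagonist of Wnt signalling (159, 88.8 and 118 at 90 days and 7.2, 4.2 and 8.7 at 120 days, -4.21 ± 0.78, adjusted p = 0.00199), Tmed9, a cargo receptor of the secretory pathway (256, 291 and 337 at 90 days and 34.7, 80.5 and 2.5 at 120 days, -3.94 ± 0.73, adjusted p = 0.00199), and Cited2, a transcriptional regulator (69.3, 206 and 83.2 at 90 days and 2.2, 5.3 and 54.7 at 120 days, -3.62 ± 1.02, adjusted p = 0.0297). The remaining 10 were Phtf2, Herpud2, Tspyl1, Mtcp1, Rpa3, Atad2b, Stk39, Slc26a3, Il10 and Gstp3, with differences from -4.07 to -3.54. Herpud2, Tspyl1, Mtcp1 and Stk39 each had 1 other probe set of opposite sign. In Mtcp1 and Stk39 the lowest signals were those of 120-day arrays 2 and 3, and array 1 read 75.4 and 95.5. Atp6v1h, Dact1, Tmed9, Herpud2 and Tspyl1 kept their calls without each array. Cited2 lost its call when any 90-day array or 120-day array 1 or 2 was left out (adjusted p up to 0.155). Phtf2 lost its call when any 90-day array or 120-day array 1 or 3 was left out (adjusted p up to 0.112). Mtcp1 lost its call when 120-day array 2 or 3 was left out (adjusted p up to 0.054). Rpa3 lost its call when 90-day array 1 was left out (adjusted p up to 0.0531). Atad2b lost its call when any 90-day array or 120-day array 2 or 3 was left out (adjusted p up to 0.0984). Stk39 lost its call when 90-day array 1 or 3 or 120-day array 2 or 3 was left out (adjusted p up to 0.0851). Slc26a3 lost its call when 90-day array 2 or 3 or 120-day array 2 or 3 was left out (adjusted p up to 0.0681). Il10 lost its call when any 90-day array or 120-day array 1 or 3 was left out (adjusted p up to 0.131). Gstp3 lost its call when 90-day array 1 was left out (adjusted p up to 0.0507).

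**Figure D4:**
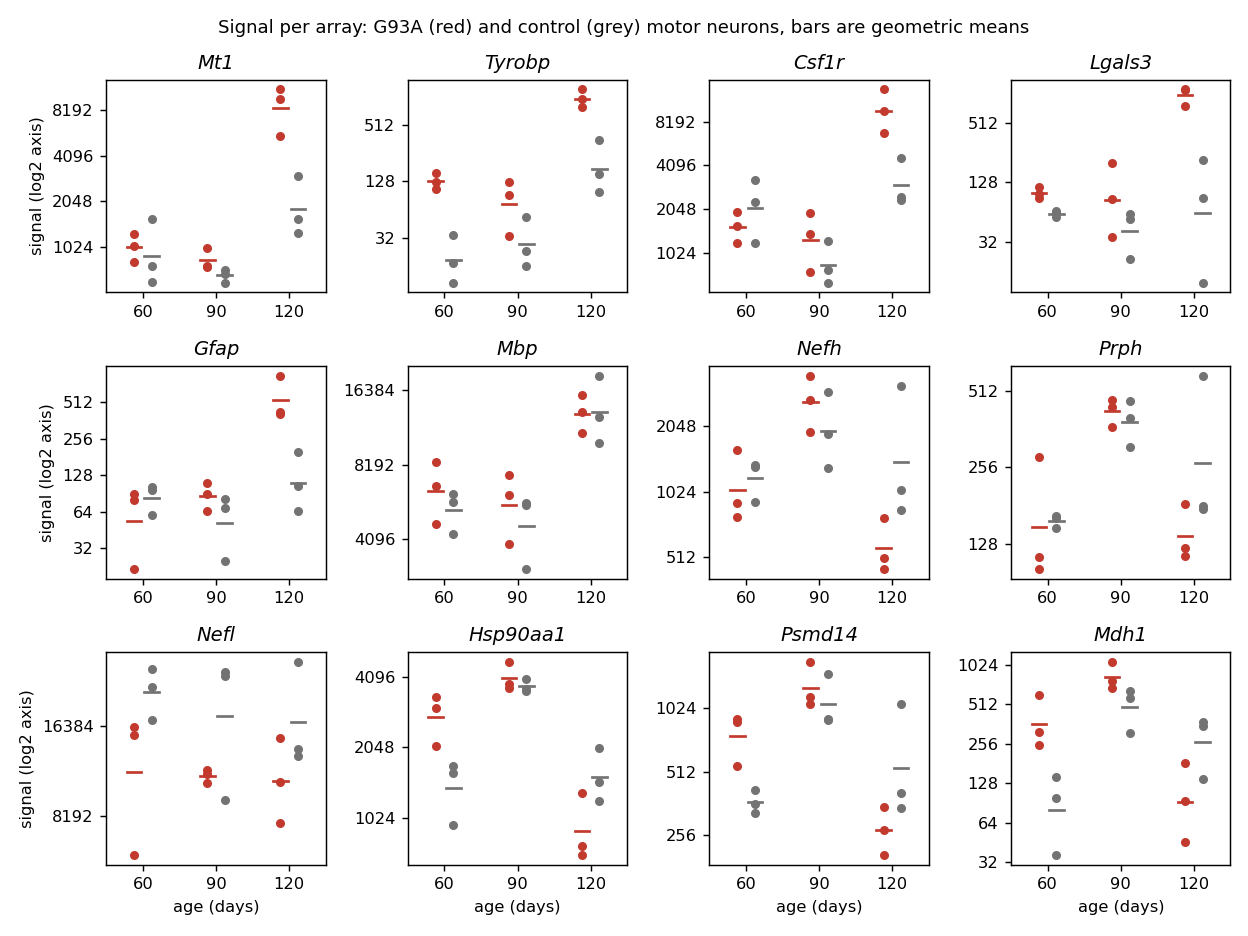
Signal of 12 genes on each of the 18 arrays by age in days (log2 axis), G93A in red and control in grey, bars at the geometric mean of 3 arrays. The red points of Mt1, Tyrobp, Csf1r, Lgals3 and Gfap at 120 days lie above all others of their panel, while Nefh, Prph, Hsp90aa1, Psmd14 and Mdh1 in G93A peak at 90 days.

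Levels of the same genes at 60 days are given for reference. The probe sets called higher had median log2 levels of 7.89, 7.23 and 9.11 in G93A at 60, 90 and 120 days, and those called lower had 7.94, 8.54 and 6.78. Mt1 stood at 1039, 820.0 and 1244 at 60 days, Csf1r at 1567, 1197 and 1953 and Gfap at 79.8, 21.6 and 90.3, all below their 120-day arrays. Nefh stood at 779.7, 1581 and 908 and Prph at 102, 282 and 114 at 60 days, below every 90-day array. The 60-day signals of Psmd14 were 909, 876 and 545 and those of Mdh1 607, 318 and 253, between those of 90 and 120 days without overlap. Since these probe sets were chosen with the 90-day arrays, the dip or peak at that age is a description and was not tested.

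Control motor neurons over the same ages had fewer calls, and most G93A calls had the same sign there. In controls 173 probe sets were called (1.04%), 110 higher (0.664%) and 63 lower (0.38%). Of the 554 probe sets called higher in G93A, 477 (86.1%) were above 0 in controls too, with a median of 0.86, and of the 713 called lower 587 (82.3%) were below 0, with a median of -0.53. Over all tested probe sets 60.3% had the same sign in both genotypes. Those called higher in both genotypes number 73, which is 13.2% of the G93A calls and 66.4% of the control calls, and those called lower in both number 23 (3.23% and 36.5%). The difference between the changes was tested directly: 0 of 16565 probe sets passed by limma (smallest adjusted p = 0.279), and 1661 (10%) had an unadjusted p below 0.05, 864 with the G93A change above (5.22%) and 797 below (4.81%). Without control 120-day array 1 the test called 1 probe set. No gene can thus be said to change differently in G93A and control animals by this test, whose median standard error was 0.98.

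Given as values, the genes of smallest p for this difference whose G93A change was the higher were Ccl5 (5.44 ± 1.30), Mrps11 (4.10 ± 1.02), Ubxn1 (3.14 ± 0.76), Bicd2 (2.55 ± 0.62) and Nfic (1.96 ± 0.49), each with an adjusted p of 0.279. Ubxn1, a cofactor of the segregase p97, had G93A signals of 91.1, 378 and 223 at 90 days and 973, 981 and 1321 at 120 days and control signals of 349, 475 and 599.8 at 90 days and 270.1, 381 and 232 at 120 days. On the other side were Golga7 (-2.93 ± 0.70), Mrps14 (-2.69 ± 0.58), Btbd10 (-2.57 ± 0.58), Rit2 (-2.27 ± 0.55) and Jkamp (-2.16 ± 0.53), with the same adjusted p. Golga7, part of a palmitoyltransferase, had G93A signals of 748, 816 and 889 at 90 days and 118, 205 and 166 at 120 days and control signals of 269, 508 and 76.8 at 90 days and 481, 267 and 269 at 120 days. Rit2, a neuronal GTPase, had G93A signals of 278, 387 and 292 at 90 days and 79.6, 84.9 and 56.9 at 120 days and control signals of 196, 244 and 152 at 90 days and 382, 162 and 162 at 120 days. All 5 of the second set fell in G93A with no overlap between the ages, and their control differences lay between 0.07 and 0.57.

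**Figure D5:**
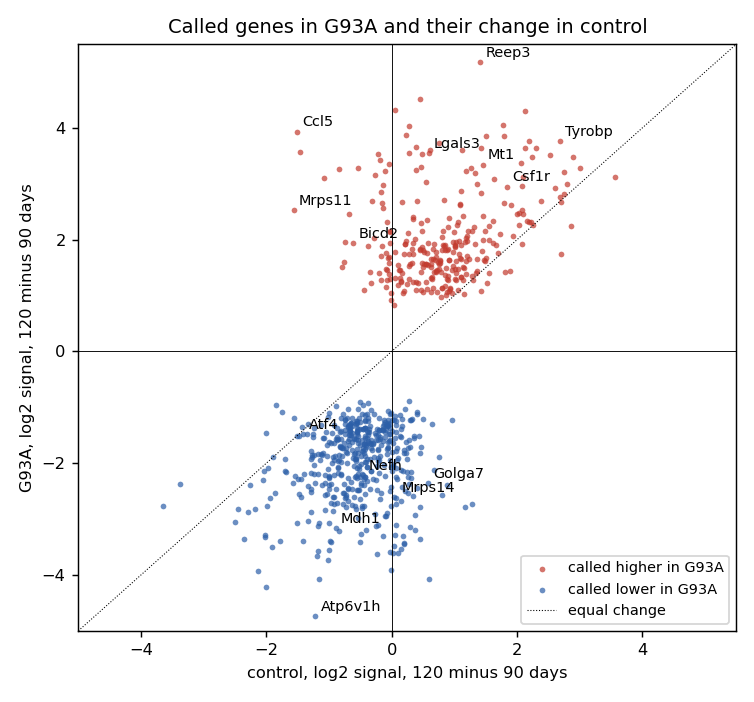
Change from 90 to 120 days in G93A (vertical axis, log2 signal) against the change in control motor neurons (horizontal axis, log2 signal) for the 764 genes called in G93A, red where higher and blue where lower, with equal change as a dotted line. Most red points lie to the right of 0 and most blue points to the left, and most lie farther from 0 vertically than horizontally, which the choice by the G93A change favours.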

How the data were processed

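Motor neuron RNA of 18 mice was measured on 1-colour oligonucleotide arrays. The values deposited by the authors are linear signal intensities of probe sets. MAS5 produced them, per the submitters' processing notes, with version and settings not given in the sources used here. Values under 1 were set to 1 and log2 taken, with no further normalization. Of 22690 probe sets, 64 control sets were left out, and 16565 above their array's median on at least 3 of 18 arrays were tested with limma 3.58.1 (R 4.3.3): 6 group means over all 18 arrays, empirical Bayes with a trend, 12 residual degrees of freedom, two-sided tests, and Benjamini-Hochberg adjustment over 16565. An adjusted p below 0.05 was a call. Array measures were compared by exact permutation tests.

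Each gene was represented by the tested probe set with the highest mean, and a set with suffix _x_at only in the absence of others. Named were up to 15 genes per direction of the largest change among calls without overlap, up to 5 per direction for the difference from the control change, up to 4 per list of smallest p, and Sod1, Nefl, Nefm, Nefh, Prph, Gfap, Aif1, Mbp, Lgals3, Mt1, Mt2 and Tyrobp. Further list members were named after their values were seen, and fits without single arrays are given for genes named by the rule. The members and the 48 lists were chosen with earlier results of these data known. Some genes belong to more than 1 list and are counted in each. Gene symbols come from the platform annotation (20380 probe sets with 1 symbol, 691 with several, 1555 with none), of which 20364 matched the gene table of GRCm38.p6. Sequences are RefSeq's. Replicate numbers do not pair the samples: the deviations of same-numbered arrays correlated at 0.01, 0.04 and -0.02. In data simulated for the G93A comparison over 16565 probe sets, log2 changes of 1, 2, 3 and 4 were recovered for 2, 16, 27 and 37 of 50 each, with 4 false calls. For the difference from the control change, 0, 4, 14 and 23 of 50 were recovered, with 1 false call. The simulated noise was independent for each probe set and array and held no array-wide shift such as that of the hybridization controls. Recovery and false calls in data with such shifts were not simulated. Alternatives changed the floor, pseudocount, scaling, filter, samples, model terms, array weights and the probe sets averaged. Detection calls were not used here.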

Additional observations from a re-analysis of the deposited data

Results flagged for a closer look

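In 5 of the 214 genes named by the rule, the 120-day arrays moved one way in G93A and the opposite way in control. The ages did not overlap in either genotype. In G93A alone, 31.7% of all genes were without overlap, a share that does not cover opposite moves in 2 genotypes. Apart from those always named, the 214 genes were chosen by the size or p of their changes, which favours such members. The share of all genes with such opposite moves was not counted, so the 5 have no background to be read against. By limma the difference between the changes passed the threshold for none of them, so the genotypes are not shown to differ. Mrps11 differed by 4.10 ± 1.02 between the changes (adjusted p = 0.279), with 2.53 in G93A and -1.57 in control. Cfb differed by 4.75 ± 1.22 between the changes (adjusted p = 0.279), with 2.02 in G93A and -2.72 in control. Gad1 differed by -3.63 ± 1.03 between the changes (adjusted p = 0.318), with -1.57 in G93A and 2.06 in control. Otub1 differed by 1.76 ± 0.47 between the changes (adjusted p = 0.29), with 1.41 in G93A and -0.35 in control. Atg13 differed by 1.54 ± 0.46 between the changes (adjusted p = 0.322), with 1.09 in G93A and -0.45 in control. Mrps11 is a mitochondrial ribosomal protein, Cfb complement factor B, Gad1 the GABA-synthesizing enzyme of interneurons, Otub1 a deubiquitinase and Atg13 an autophagy regulator. Cfb signals in controls were 76.8, 42.9 and 42.1 at 90 days and 9, 5 and 10.7 at 120 days, and those of Gad1 were 59.9, 107 and 27.4 at 90 days and 599, 151 and 141 at 120 days, against 207, 197 and 177 at 90 days and 37.3, 108 and 68 at 120 days in G93A.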

How the results depend on the processing

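Of 148 called genes named, 145 kept the call with a pseudocount of 16, 143 with values under 16 set to 16, 134 after quantile normalization, 135 after centring on the array median, 138 with no filter, 142 in a fit of the 6 G93A arrays alone, 147 with array weights, 136 with the Gapdh ratio in the model, 94 with the mean over all probe sets of the gene, 85 without a trend in the empirical Bayes step and 6 with hybridization controls as a model term. A fit with the replicate block kept 141 and gave 1219 calls, and the count of differences from the control change stayed at 0. Without the trend 612 probe sets were called, 321 higher and 291 lower, and 2 for the difference from the control change. With array weights the lower calls numbered 1090, and with the hybridization controls as a term the calls were 19, 12 higher and 7 lower. With single arrays left out there were 548 to 1054 calls, 257 to 455 higher and 291 to 621 lower, and 0 or 1 for the difference (1 without control 120-day array 1). The share of upward calls was 43.7%, 33.1% after centring on the median (389 higher, 785 lower), where the median of all probe sets moved from -0.05 to -0.24, and 63.2% with the hybridization controls as a term. Of 66 named genes that were not called, 38 passed in at least 1 alternative, among them Nefm, Cct5, Becn1, Hmox1, Cst7, C1qb and Gap43. A pseudocount of 16 also shrank the differences of Mrps11 (2.53 to 1.65) and Xiap (-3.20 to -1.92).

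Signs turned as follows. With hybridization controls as a model term they did for Gad1 (0.30), Atf3 (-0.67), Atp2a2 (0.29), Cct5 (0.10), Sod1 (0.41) and the called Eef1a1 (0.062). Nefl turned with the Gapdh ratio (0.31) and without 120-day array 2 (0.17, with -0.30 as its lowest value without 1 array), Atf3 without 90-day array 1 (-0.013, with 1.56 as its highest value without 1 array), Fth1 after quantile normalization (-0.24) and Ldhb with the mean over its probe sets (-0.74). The medians of 14 of the 48 lists changed sign in at least 1 of 19 settings, those of astrocyte markers in 9 and those of voltage-gated channels and glutamate receptors in 7 each. This included medians away from 0: with hybridization controls as a model term those of interferon and antigen presentation genes (0.55 to -0.14), interneuron genes (-0.49 to 0.59), calcium pumps and buffers (-0.49 to 0.21) and translation factors (-0.33 to 0.06), and with the filter of 9 of 18 arrays that of complement genes (1.05 to -0.09). Precision was limited by 3 animals per group: the median standard error was 0.69 for the change and 0.98 for its difference from controls.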

Other observations

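Different probe sets of 1 gene did not always move together between 90 and 120 days. Of 764 called genes, 392 had other tested probe sets, all others shared the sign in 214 of these, another was called in the same direction in 70, and another was called in the opposite direction in 8: Abcg4, Eif2s2, Htra3, Klf9, Marcksl1, Mtpn, Sec61a1 and Serf2. Klf9, a glucocorticoid-induced transcription factor, was higher by 2.46 ± 0.37 in its brightest probe set and lower by a log2 difference of -1.50 ± 0.38 in another. Sec61a1, the channel of the endoplasmic reticulum translocon, differed by 1.96 ± 0.32 in the first and -2.75 ± 0.85 in another. For Eif2s2, a subunit of the initiation factor eIF2, the values were 1.27 ± 0.38 and -4.31 ± 0.66. These genes were chosen after their values were seen.

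The share of calls also differed by kind of probe set. Among 11226 probe sets that match 1 transcript (suffix _at), 1.68% were called higher and 3.9% lower. Of 1260 probe sets whose probes may hybridize to other sequences (suffix _x_at), 13.2% were called higher and 6.03% lower, and their median difference was 0.30 in G93A and 0.12 in controls.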
